A study of Saccharomyces cerevisiae with 16 samples.

Results

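The 40 genes described here encode, in the nucleus of Saccharomyces cerevisiae, the subunits of succinate dehydrogenase, complex III, cytochrome c, cytochrome oxidase and ATP synthase, and the 3 NADH dehydrogenases of the mitochondrial inner membrane. They were chosen by function, as a list of systematic names looked up in a table of 7126 features, and all 40 were found there and passed the filter on low counts, with 6206 genes tested in all. RNA-seq was performed on haploid crz1Δ hog1Δ cells (BY4741 background, MATa), and every group carries both deletions. The sample titles name the deletions and not the strain. Of the strains that the study lists with both, YJB622 has crz1Δ::KanMx, hog1Δ::LEU2 and a 3HA tag on Hcm1 marked with HIS3. Others have crz1Δ::LEU2 and hog1Δ::HIS3 with a tag on Ndd1 or Fkh2. All of these strains also lack URA3, LEU2, HIS3 and MET15 of the background. Crz1 is the main transcription factor downstream of calcineurin (CN), the Ca2+-activated phosphatase, and Hog1 is a stress-activated MAP kinase, and neither protein is present in any group. Cells were grown in synthetic medium with dextrose (glucose), and with ammonium chloride as nitrogen source. They were pre-treated for 15 min with FK506, a CN inhibitor, at 1 μg/ml, or with the ET buffer that carries the drug. After this they received 200 mM CaCl2. Libraries were made at 0, 10, 30 and 60 min from duplicate time courses of each pre-treatment, which gives 4 FK506 groups and 4 ET groups of 2 libraries each. With 2 libraries in a group, all groups share the estimate of spread on which the tests rest.

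Oxidative phosphorylation passes electrons from NADH and succinate through ubiquinone, complex III and cytochrome c to oxygen at cytochrome oxidase, and ATP synthase uses the resulting proton gradient to make ATP. S. cerevisiae lacks a proton-pumping complex I and uses single-protein NADH dehydrogenases in its place, of which Ndi1 faces the matrix and Nde1 and Nde2 face the intermembrane space. Cells growing on glucose keep most of these genes low through glucose repression, and the Hap2/3/4/5 complex activates many of them when glucose runs out. Cytochrome c and subunit 5 of cytochrome oxidase each come in paralogous forms, an aerobic one (CYC1, COX5A) and one known for expression at low oxygen or under stress (CYC7, COX5B).

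Total counts ranged from 11221758 to 11970166 per library. HOG1 had 0 counts in all 16 libraries and CRZ1 had 1 count in each of 2 libraries, as the labels require. The cells' mating type showed in the a-cell genes, which summed to between 1942 and 3057 normalised CPM (read counts scaled to a common library size), against 90.5 to 138 normalised CPM for the α-cell genes. Mitochondrially encoded mRNAs summed to between 1421 and 2419 normalised CPM. None of the 40 genes overlaps another annotated gene on either strand, and none shares a stretch of 50 bases with any other place in the genome.

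The stretches of promoter shown next belong to the 3 pairs of paralogs whose members moved apart in these data. They run from 350 to 91 bases before the start codon, read 5′ to 3′ on the strand of the gene (RefSeq, build R64), and capitals mark matches, on either strand, to AGGGG, the core of the stress response element bound by Msn2 and Msn4, or to TNATTGGT, the site preferred by Hap2/3/4/5. CYC7 lies at chrV:80068-80327 and CYC1 at chrX:525985-526244. COX5B lies at chrIX:154872-155131 and COX5A at chrXIV:531375-531634. NDE2 lies at chrIV:302861-303120 and NDE1 at chrXIII:556566-556825, and CYC7 and NDE1 are on the minus strand, the other 4 on the plus strand.
CYC7: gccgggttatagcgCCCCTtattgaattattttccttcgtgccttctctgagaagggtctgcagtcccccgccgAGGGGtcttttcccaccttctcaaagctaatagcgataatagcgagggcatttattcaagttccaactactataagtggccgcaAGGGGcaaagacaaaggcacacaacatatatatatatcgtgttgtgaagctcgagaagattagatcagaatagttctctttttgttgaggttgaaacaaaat
CYC1: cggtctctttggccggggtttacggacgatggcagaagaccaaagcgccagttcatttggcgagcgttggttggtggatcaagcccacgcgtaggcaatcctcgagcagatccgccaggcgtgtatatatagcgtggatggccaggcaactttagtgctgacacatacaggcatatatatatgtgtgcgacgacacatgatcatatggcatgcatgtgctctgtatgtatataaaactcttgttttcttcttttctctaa
COX5B: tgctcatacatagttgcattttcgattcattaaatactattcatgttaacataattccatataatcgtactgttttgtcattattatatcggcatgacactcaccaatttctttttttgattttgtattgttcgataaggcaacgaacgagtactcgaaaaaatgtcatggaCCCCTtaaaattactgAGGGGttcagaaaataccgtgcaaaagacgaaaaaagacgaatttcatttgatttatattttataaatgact
COX5A: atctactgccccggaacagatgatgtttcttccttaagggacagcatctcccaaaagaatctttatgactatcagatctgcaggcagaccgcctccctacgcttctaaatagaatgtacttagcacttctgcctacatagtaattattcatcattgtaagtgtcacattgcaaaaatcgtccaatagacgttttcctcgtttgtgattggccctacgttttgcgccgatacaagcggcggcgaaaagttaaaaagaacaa
NDE2: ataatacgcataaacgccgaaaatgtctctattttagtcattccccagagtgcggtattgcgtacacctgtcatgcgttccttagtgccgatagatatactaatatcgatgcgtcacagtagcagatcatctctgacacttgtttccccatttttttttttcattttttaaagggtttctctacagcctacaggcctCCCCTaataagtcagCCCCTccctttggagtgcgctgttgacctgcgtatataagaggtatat
NDE1: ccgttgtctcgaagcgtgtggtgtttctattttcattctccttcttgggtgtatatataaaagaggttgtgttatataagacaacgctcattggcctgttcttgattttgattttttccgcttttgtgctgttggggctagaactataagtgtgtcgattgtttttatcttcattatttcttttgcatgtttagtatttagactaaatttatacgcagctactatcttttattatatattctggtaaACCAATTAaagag
Within 500 bases of the start codon AGGGG occurred 3 times before CYC7, at 188 to 192, 272 to 276 and 332 to 336 bases, 2 times before COX5B, at 158 to 162 and 174 to 178 bases, and 2 times before NDE2, at 134 to 138 and 149 to 153 bases. It was not found before CYC1, COX5A or NDE1 in that window. TNATTGGT occurred before COX5B, 66 to 73 bases from the start codon, and before NDE1, at 96 to 103 and 3 to 10 bases. Among all 40 genes, 18 (45.0%) held TNATTGGT in that window and 19 (47.5%) held AGGGG, against 8.57% and 34.1% of the 5986 nuclear protein-coding genes of the table. The core ATTGG, which TNATTGGT contains, was found before 36 of the 40 genes (90.0%) and before 62.5% of all genes. For Hap1 only a strict form of the site was searched, a pair of CGG triplets around TA at fixed spacing. This form was found before QCR6 alone among the 40, and before 0.351% of all genes. These are matches of letters, not measured sites. Sites that depart from a searched string were not counted. A gene without a match, such as CYC1 or CYC7 for Hap1, can therefore still hold a site.

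Most of the 40 genes were called higher 60 min after CaCl2 in both pre-treatments. The median change at that time was larger in ET cells. At 10 min, 21 of 40 were higher with FK506 (24.4% of all genes tested were called higher) and 4 were lower (30.2% of all genes), with a median log2 change of 0.23. In ET cells 22 were higher at 10 min (26.6% of all genes) and 2 lower (31.8% of all genes), with a median of 0.24. At 30 min, 32 were higher with FK506 (24.5% of all genes) and 1 lower (27.5% of all genes), and 28 were higher in ET cells (33.1% of all genes) and 2 lower (35.3% of all genes). The median log2 change at 30 min was 0.50 with FK506 and 0.65 in ET cells. At 60 min, 32 were higher with FK506 (13.1% of all genes) and 0 lower (15.7% of all genes), with a median of 0.40, and 35 were higher in ET cells (33.6% of all genes) and 1 lower (34.7% of all genes), with a median of 0.77. The median over all 6206 genes lay between -0.03 and 0.01 in these 6 comparisons. A log2 change of at least 1, on top of the call, was reached at 60 min by 0 of the 40 genes with FK506 (1.77% of all genes) and by 11 in ET cells (10.1% of all genes).

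**Figure D1:**
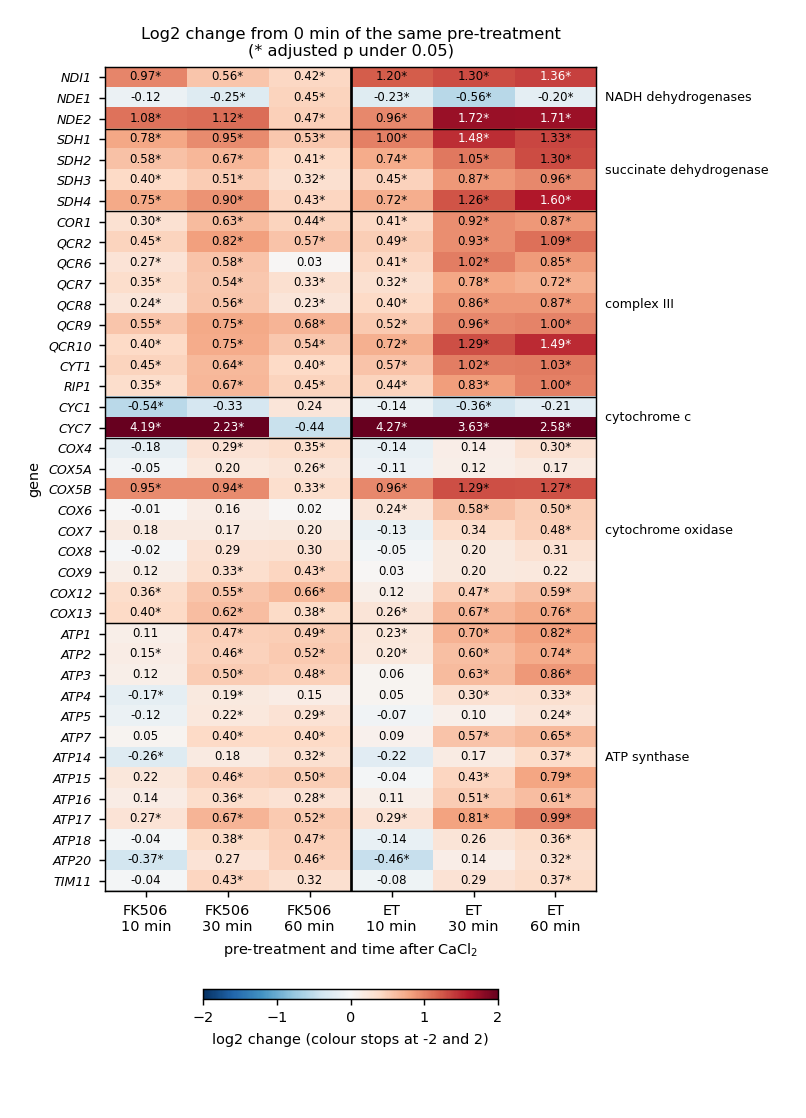
Log2 change from 0 min of the same pre-treatment for the 40 genes, in rows by complex, at 10, 30 and 60 min with FK506 (left 3 columns) and in ET cells (right 3 columns); stars mark an adjusted p under 0.05 (limma) and colour stops at -2 and 2. Succinate dehydrogenase and complex III were higher in nearly every cell of the map, with QCR6 at 0.03 with FK506 at 60 min the lowest, while cytochrome oxidase and ATP synthase hold the palest cells.

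With FK506 the log2 change was smaller at 60 than at 30 min for 25 genes, and in ET cells for 8. The genes called higher at all 3 times numbered 19 with FK506 and 22 in ET cells, and 3 genes were called at no time in each pre-treatment. None of these counts over time was made for all genes, so they are not read as particular to the 40. Of all genes, 52.0% were called in either direction at 30 min and 28.8% at 60 min with FK506. In ET cells these shares were 68.4% and 68.3%. All calls are from limma voom with Benjamini-Hochberg adjustment over 6206 genes at an adjusted p of 0.05. Scaling by raw library totals moved the median log2 change of all genes by 0.06 with FK506 and 0.07 in ET cells at 10 min, by 0.20 in both at 30 min, and by 0.12 with FK506 and 0.23 in ET cells at 60 min, so the changes given here are relative to the typical gene. The counts of calls moved most with FK506: without replicate 2 of the FK506 10 min group 16 genes were called at 10 min, all of them higher, and without replicate 1 of the FK506 60 min group 20 were called at 60 min, all higher. The 40 genes also shared an offset between replicates: all 40 were lower in replicate 2 than in replicate 1 of the FK506 30 min group and 39 were lower in replicate 2 of the FK506 60 min group, with a median log2 difference of -0.21 at 30 min and -0.15 at 60 min, whereas 50.2% of all genes were lower in replicate 2 at 30 min and 55.8% at 60 min. In the other groups 31 and 18 of the 40 were lower in replicate 2 with FK506 at 0 and 10 min, and 33, 13, 30 and 33 in ET cells at 0, 10, 30 and 60 min. Its part in the results was not tested beyond the replicate term that the fit holds.

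The NADH dehydrogenases split by gene. NDI1 (YML120C), the enzyme that feeds matrix NADH into the chain, had 80.2 and 87.9 normalised CPM before CaCl2, 155 and 174 after 10 min, 135 and 114 after 30 min and 116 and 109 after 60 min with FK506. In ET cells NDI1 had 67.6 and 71.0 normalised CPM before CaCl2, 152 and 168 after 10 min, 171 and 169 after 30 min and 179.6 and 176 after 60 min. It was higher in every library at 10 min than at 0 min, after which both FK506 libraries at 60 min lay below those at 10 min and both ET libraries above them, with a log2 change at 60 min of 0.42 ± 0.09 with FK506 and 1.36 ± 0.09 in ET cells (limma, ± SE, adjusted p = 0.00167 with FK506 and 3.62e-10 in ET cells). NDE2 (YDL085W, chrIV:303211-304848), the scarcer external NADH dehydrogenase, had 9.51 and 11.5 normalised CPM before CaCl2, 21.3 and 23.0 after 10 min, 23.8 and 21.7 after 30 min and 15.6 and 13.4 after 60 min with FK506. In ET cells NDE2 had 10.5 and 9.73 normalised CPM before CaCl2, 18.8 and 20.5 after 10 min, 34.2 and 32.5 after 30 min and 34.4 and 31.8 after 60 min. Its libraries at 60 min did not overlap between the pre-treatments, and the log2 change there was 0.47 ± 0.15 with FK506 and 1.71 ± 0.14 in ET cells. For NDE2 the adjusted p (limma) was 0.0285 with FK506 and 5.68e-09 in ET cells. The FK506 call for NDE2 at 60 min was lost under DESeq2 and without replicate 1 of either the FK506 0 min or the FK506 60 min group.

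NDE1 (YMR145C, chrXIII:554793-556475), the more abundant external enzyme, moved the other way. It had 145 and 140.0 normalised CPM before CaCl2, 133 and 129.7 after 10 min, 123 and 117 after 30 min and 197 and 191 after 60 min with FK506. In ET cells NDE1 had 156 and 155 normalised CPM before CaCl2, 132 and 131 after 10 min, 107 and 104 after 30 min and 133 and 137 after 60 min. Both pre-treatments were lower at 30 min than at 0 min, by a log2 change of -0.25 ± 0.06 with FK506 and -0.56 ± 0.06 in ET cells (limma, adjusted p = 9.63e-04 with FK506 and 1.03e-07 in ET cells). At 60 min NDE1 was higher than at 0 min with FK506, by 0.45 ± 0.05 on the log2 scale, and lower in ET cells, by -0.20 ± 0.05. For NDE1 the adjusted p (limma) was 4.68e-06 with FK506 and 0.00365 in ET cells. It was the only one of the 40 genes with opposite calls at 60 min, but the ET fall at 60 min did not hold with raw library totals, where it was 0.04, and its call was lost without replicate 1 of the ET 60 min group; the FK506 fall at 30 min also lost its call with raw library totals.

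All 4 subunits of succinate dehydrogenase, the enzyme shared by the respiratory chain and the TCA cycle, rose at every time in both pre-treatments. All 4 were called higher each time. Of all genes 24.4%, 24.5% and 13.1% were called higher at 10, 30 and 60 min with FK506, and 26.6%, 33.1% and 33.6% in ET cells. Their median log2 change at 10, 30 and 60 min, over the 4 genes, was 0.67, 0.79 and 0.42 with FK506, and 0.73, 1.16 and 1.32 in ET cells. SDH4 (YDR178W), a membrane anchor, had 45.8 and 51.7 normalised CPM before CaCl2, 77.3 and 87.0 after 10 min, 94.7 and 87.5 after 30 min and 71.4 and 60.5 after 60 min with FK506. In ET cells SDH4 had 41.4 and 47.3 normalised CPM before CaCl2, 71.8 and 74.5 after 10 min, 109 and 103 after 30 min and 136 and 133 after 60 min. The ET libraries at 60 min were the highest of the 16, with a log2 change of 0.43 ± 0.10 with FK506 and 1.60 ± 0.10 in ET cells. For SDH4 the adjusted p (limma) was 0.00368 with FK506 and 1.16e-10 in ET cells. SDH1 (YKL148C), the flavoprotein, had a log2 change at 60 min of 0.53 with FK506 and 1.33 in ET cells, SDH2 (YLL041C), the iron-sulfur subunit, 0.41 with FK506 and 1.30 in ET cells, and SDH3 (YKL141W), the other anchor, 0.32 with FK506 and 0.96 in ET cells. Per kb of coding sequence SDH3 was the most abundant of the 4, with a mean of 241 normalised CPM per kb in FK506 cells and 349 in ET cells at 60 min, and SDH1 the least, with 101 in FK506 cells and 139 in ET cells. Without replicate 1 of the FK506 60 min group the FK506 calls of SDH3 and SDH4 at 60 min were lost, and that of SDH4 was also lost without replicate 1 of the FK506 0 min group.

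Complex III, which hands electrons from ubiquinol to cytochrome c, had rises called in every gene at 10 and 30 min. At 60 min with FK506 the log2 changes of its genes ran from 0.03 to 0.68. Each of its 9 genes was higher at 10, 30 and 60 min in ET cells, and with FK506 each was higher at 10 and 30 min and 8 were higher at 60 min. The shares higher over all genes were 26.6%, 33.1% and 33.6% in ET cells, and 24.4%, 24.5% and 13.1% with FK506. The median log2 change at 10, 30 and 60 min was 0.35, 0.64 and 0.44 with FK506, and 0.44, 0.93 and 1.00 in ET cells. QCR9 (YGR183C), a small subunit with the largest called rise of the 40 at 60 min with FK506, had 27.4 and 23.6 normalised CPM before CaCl2, 38.3 and 36.4 after 10 min, 45.2 and 40.7 after 30 min and 42.9 and 38.6 after 60 min with FK506. In ET cells QCR9 had 30.0 and 25.2 normalised CPM before CaCl2, 38.2 and 41.3 after 10 min, 52.7 and 54.6 after 30 min and 60.0 and 50.4 after 60 min. Its log2 change at 60 min was 0.68 ± 0.11 with FK506 and 1.00 ± 0.10 in ET cells. For QCR9 the adjusted p (limma) was 1.44e-04 with FK506 and 1.57e-07 in ET cells. QCR2 (YPR191W), a core protein, had 217 and 212 normalised CPM before CaCl2, 285 and 301 after 10 min, 398 and 361 after 30 min and 324 and 312 after 60 min with FK506. In ET cells QCR2 had 200.4 and 192 normalised CPM before CaCl2, 269 and 284 after 10 min, 372 and 378 after 30 min and 425 and 413 after 60 min. Its log2 change at 60 min was 0.57 ± 0.06 with FK506 and 1.09 ± 0.06 in ET cells. For QCR2 the adjusted p (limma) was 8.69e-07 with FK506 and 2.59e-11 in ET cells.

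The smallest called rise with FK506 at 60 min was that of QCR8 (YJL166W), another small subunit, with 48.6 and 49.3 normalised CPM before CaCl2, 58.7 and 56.5 after 10 min, 80.7 and 64.1 after 30 min and 61.7 and 53.3 after 60 min with FK506. In ET cells QCR8 had 46.9 and 43.1 normalised CPM before CaCl2, 63.8 and 55.2 after 10 min, 86.1 and 77.7 after 30 min and 87.1 and 77.9 after 60 min. Its log2 change at 60 min was 0.23 ± 0.09 with FK506, close to the threshold, and 0.87 ± 0.08 in ET cells. For QCR8 the adjusted p (limma) was 0.0491 with FK506 and 4.35e-08 in ET cells, and the FK506 call was lost under DESeq2, with RLE scaling and without the replicate term. QCR6 (YFR033C), the acidic hinge protein, was the one subunit not called with FK506 at 60 min, where its log2 change was 0.03, against 0.85 in ET cells. The remaining genes ranged at 60 min between 0.33, for QCR7 (YDR529C), and 0.54, for QCR10 (YHR001W-A), with FK506, and between 0.72, for QCR7, and 1.49, for QCR10, in ET cells. Among these, CYT1 (YOR065W), which encodes cytochrome c1, RIP1 (YEL024W), the Rieske iron-sulfur protein, and COR1 (YBL045C), a core protein, had log2 changes of 0.40, 0.45 and 0.44 with FK506 and 1.03, 1.00 and 0.87 in ET cells.

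The largest change of all was in CYC7 (YEL039C, chrV:79636-79977), the gene of cytochrome c isoform 2. It had 3.90 and 3.95 normalised CPM before CaCl2, 76.1 and 68.6 after 10 min, 25.8 and 13.4 after 30 min and 2.93 and 2.83 after 60 min with FK506. In ET cells CYC7 had 2.20 and 3.52 normalised CPM before CaCl2, 54.1 and 54.1 after 10 min, 39.0 and 30.9 after 30 min and 16.4 and 17.1 after 60 min. Every library at 10 min was far above every library at 0 min, after which both FK506 libraries at 60 min lay below those at 0 min and both ET libraries above theirs. At 10 min the log2 change was 4.19 ± 0.32 with FK506 (18.3-fold) and 4.27 ± 0.37 in ET cells (19.3-fold), with an adjusted p (limma) of 1.20e-08 with FK506 and 4.67e-08 in ET cells. At 60 min it was -0.44 ± 0.46 with FK506, which did not pass the test (limma, adjusted p = 0.524), and 2.58 ± 0.39 in ET cells (limma, adjusted p = 1.30e-05). The counts behind the lowest values are small, at 24 in the lowest library and 831 in the highest. CYC1 (YJR048W, chrX:526335-526664), the aerobic isoform, had 20.9 and 17.2 normalised CPM before CaCl2, 15.2 and 11.1 after 10 min, 15.4 and 14.9 after 30 min and 23.6 and 21.3 after 60 min with FK506. In ET cells CYC1 had 18.8 and 16.1 normalised CPM before CaCl2, 15.1 and 16.7 after 10 min, 13.9 and 13.2 after 30 min and 15.3 and 15.0 after 60 min. It was lower at 10 min with FK506, by -0.54 ± 0.15 on the log2 scale (limma, adjusted p = 0.00484), a call lost without replicate 1 of the FK506 0 min or replicate 2 of the FK506 10 min group, and at 30 min in ET cells, by -0.36 ± 0.14 (limma, adjusted p = 0.0336), a call lost under DESeq2, with raw library totals and without any 1 of 7 libraries. At 60 min CYC1 passed the test in neither pre-treatment, with a log2 change of 0.24 with FK506 and -0.21 in ET cells, which with raw library totals was 0.36 and called with FK506 and 0.03 in ET cells.

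Cytochrome oxidase, the terminal enzyme, had called rises in part of its subunits. With FK506 3, 5 and 6 of its 9 nuclear genes were higher at 10, 30 and 60 min, and in ET cells 3, 4 and 6 were higher, with no gene lower at any time. Of all genes 24.4%, 24.5% and 13.1% were higher at these times with FK506, and 26.6%, 33.1% and 33.6% in ET cells. With only 9 genes, the counts at 10 min, 33.3% in each pre-treatment, were near these shares. The same held in ET cells at 30 min, at 44.4%. The median log2 change at 60 min was 0.33 with FK506 and 0.48 in ET cells. COX5B (YIL111W, chrIX:155222-155765), the hypoxic form of subunit 5, had 46.2 and 44.8 normalised CPM before CaCl2, 91.0 and 85.3 after 10 min, 91.5 and 83.2 after 30 min and 60.3 and 54.0 after 60 min with FK506. In ET cells COX5B had 39.3 and 43.1 normalised CPM before CaCl2, 80.5 and 78.9 after 10 min, 111 and 91.4 after 30 min and 104 and 94.4 after 60 min. Every library at 10 min was above every library at 0 min, and at 60 min every ET library was above every FK506 library, with a log2 change from 0 min of 0.33 ± 0.09 with FK506 and 1.27 ± 0.09 in ET cells. For COX5B the adjusted p (limma) was 0.011 with FK506 and 5.39e-10 in ET cells. The FK506 call at 60 min was lost without replicate 1 of the FK506 0 min or the FK506 60 min group. COX5A (YNL052W, chrXIV:531725-532186), the aerobic form, had 60.8 and 63.9 normalised CPM before CaCl2, 55.7 and 64.6 after 10 min, 77.7 and 66.4 after 30 min and 75.8 and 73.0 after 60 min with FK506. In ET cells COX5A had 63.2 and 62.7 normalised CPM before CaCl2, 60.1 and 57.0 after 10 min, 70.4 and 67.0 after 30 min and 72.1 and 70.0 after 60 min. Of its 6 changes only that at 60 min with FK506 passed the test, at 0.26 ± 0.09 (limma, adjusted p = 0.0339), and this call was lost under DESeq2 and without replicate 1 of FK506 0 min or either FK506 60 min library.

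Among the other subunits of cytochrome oxidase, COX12 (YLR038C) had 26.4 and 23.0 normalised CPM before CaCl2, 33.8 and 29.5 after 10 min, 41.9 and 31.1 after 30 min and 41.5 and 36.4 after 60 min with FK506. In ET cells COX12 had 28.2 and 27.0 normalised CPM before CaCl2, 31.1 and 28.6 after 10 min, 37.0 and 39.4 after 30 min and 47.2 and 36.3 after 60 min. It had the largest change of the complex with FK506 at 60 min and was higher than at 0 min in both pre-treatments, by 0.66 ± 0.12 with FK506 and 0.59 ± 0.12 in ET cells. For COX12 the adjusted p (limma) was 5.65e-04 with FK506 and 2.57e-04 in ET cells. COX4 (YGL187C) had 71.0 and 60.9 normalised CPM before CaCl2, 56.8 and 59.4 after 10 min, 87.7 and 74.2 after 30 min and 88.2 and 80.2 after 60 min with FK506. In ET cells COX4 had 66.1 and 63.6 normalised CPM before CaCl2, 57.9 and 59.6 after 10 min, 69.7 and 72.9 after 30 min and 77.8 and 81.7 after 60 min. Its groups at 0 and 60 min did not overlap in either pre-treatment, and the log2 change at 60 min was 0.35 ± 0.09 with FK506 and 0.30 ± 0.09 in ET cells. For COX4 the adjusted p (limma) was 0.00848 with FK506 and 0.00964 in ET cells, and each call was lost without either of 2 libraries, replicate 1 at 60 min and replicate 2 at 0 min with FK506, and replicate 1 at 0 min and replicate 2 at 60 min in ET cells. COX13 (YGL191W) rose in both, at 60 min by 0.38 with FK506 and 0.76 in ET cells, whereas COX6 (YHR051W) was called at 60 min in ET cells, at 0.50, and not with FK506, at 0.02. COX7 (YMR256C), COX8 (YLR395C) and COX9 (YDL067C) had log2 changes at 60 min of 0.20, 0.30 and 0.43 with FK506 and 0.48, 0.31 and 0.22 in ET cells, of which only COX9 with FK506 and COX7 in ET cells passed the test.

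**Figure D2:**
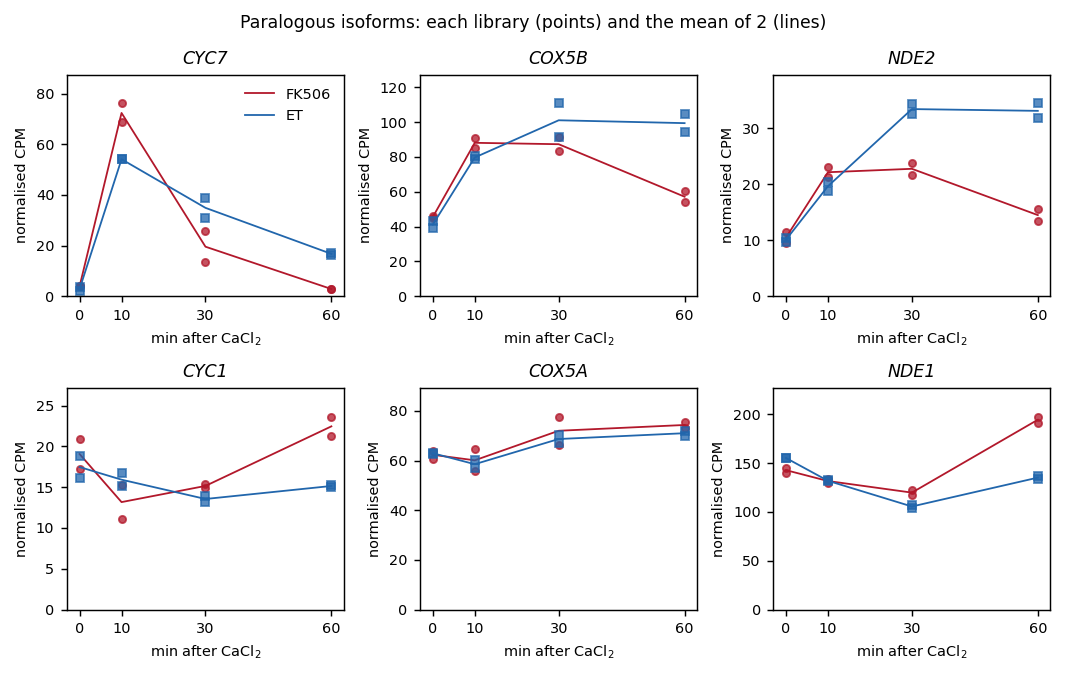
Normalised CPM of the 3 pairs of paralogs against min after CaCl2, FK506 as circles and ET as squares, with 1 point per library and a line through the mean of 2 libraries. CYC7, COX5B and NDE2 (top) peaked by 30 min and then dropped with FK506, whereas NDE1 (bottom right) ended above its 0 min level with FK506, at 197 and 191 normalised CPM, against 133 and 137 in ET cells.

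Because the members of a pair differ little in length, their ratio per kb of coding sequence shows which isoform's mRNA was in excess in a library. CYC7 and CYC1 are 74.9% identical over their aligned coding sequences, COX5B and COX5A 65.8% and NDE2 and NDE1 62.2%, with no shared stretch of 50 bases in any pair. The CYC7 to CYC1 ratio was 0.180 and 0.221 before CaCl2, 4.83 and 5.95 after 10 min, 1.62 and 0.864 after 30 min and 0.120 and 0.128 after 60 min with FK506. In ET cells it was 0.113 and 0.211 before CaCl2, 3.45 and 3.13 after 10 min, 2.70 and 2.26 after 30 min and 1.04 and 1.10 after 60 min. CYC7 mRNA thus exceeded CYC1 mRNA in all 4 libraries at 10 min, in 1 of 2 FK506 libraries at 30 min and in both ET libraries at 30 and 60 min, and was the minor isoform again in both FK506 libraries at 60 min. The COX5B to COX5A ratio was 0.770 and 0.711 before CaCl2, 1.65 and 1.34 after 10 min, 1.19 and 1.27 after 30 min and 0.807 and 0.750 after 60 min with FK506. In ET cells it was 0.629 and 0.696 before CaCl2, 1.36 and 1.40 after 10 min, 1.59 and 1.38 after 30 min and 1.47 and 1.37 after 60 min. COX5B was in excess in every library at 10 and 30 min, and at 60 min in the ET libraries only. The NDE2 to NDE1 ratio was 0.0672 and 0.0842 before CaCl2, 0.164 and 0.182 after 10 min, 0.199 and 0.191 after 30 min and 0.0812 and 0.0719 after 60 min with FK506. In ET cells it was 0.0691 and 0.0646 before CaCl2, 0.146 and 0.160 after 10 min, 0.329 and 0.321 after 30 min and 0.265 and 0.239 after 60 min, so NDE1 stayed the major mRNA in every library.

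**Figure D3:**
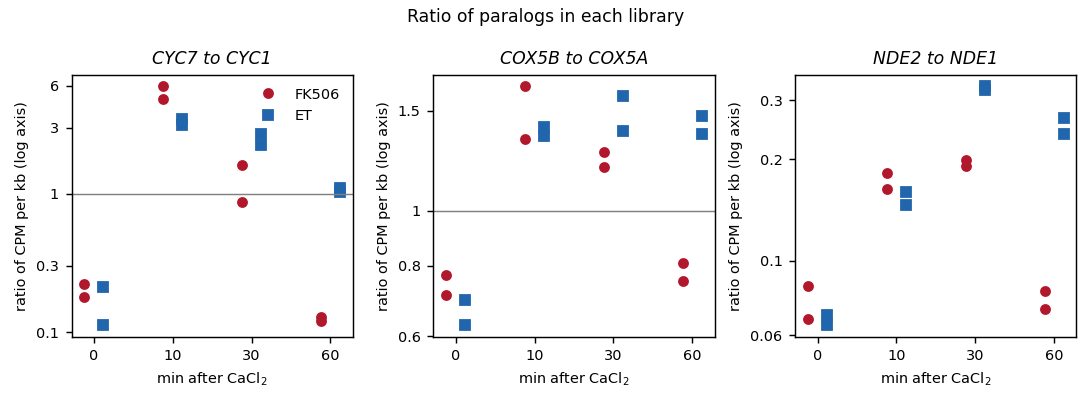
Ratio of normalised CPM per kb between paralogs in each library (log axis), FK506 as circles and ET as squares, at 0, 10, 30 and 60 min; the grey line in 2 panels marks equal levels. At 60 min the FK506 libraries sit near the 0 min values in all 3 panels and the ET libraries above them.

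ATP synthase, which makes ATP from the proton gradient, rose late. With FK506 2 of its 13 nuclear genes were higher and 3 lower at 10 min, 11 were higher at 30 min and 11 at 60 min, and in ET cells 3 were higher and 1 lower at 10 min, 8 higher at 30 min and all 13 higher at 60 min. The counts at 10 min were not above the shares of all genes, of which 24.4% were higher and 30.2% lower with FK506, and 26.6% higher and 31.8% lower in ET cells. The shares higher over all genes were 24.5% with FK506 and 33.1% in ET cells at 30 min. At 60 min they were 13.1% with FK506 and 33.6% in ET cells. The median log2 change at 60 min was 0.46 with FK506 and 0.61 in ET cells. ATP2 (YJR121W), the catalytic β subunit of F1, had 1127 and 1142 normalised CPM before CaCl2, 1248 and 1272 after 10 min, 1576 and 1552 after 30 min and 1704 and 1560.1 after 60 min with FK506. In ET cells ATP2 had 1092 and 1099 normalised CPM before CaCl2, 1244 and 1282 after 10 min, 1658 and 1674 after 30 min and 1871 and 1801 after 60 min. It carried between 21.8% and 24.8% of all counts of the 40 genes in a library, and its log2 change at 60 min was 0.52 ± 0.05 with FK506 and 0.74 ± 0.05 in ET cells. For ATP2 the adjusted p (limma) was 1.71e-07 with FK506 and 2.68e-10 in ET cells. ATP16 (YDL004W), the δ subunit, had 113 and 102 normalised CPM before CaCl2, 114 and 123 after 10 min, 151 and 125 after 30 min and 135 and 126 after 60 min with FK506. In ET cells ATP16 had 109 and 102 normalised CPM before CaCl2, 114 and 114 after 10 min, 154 and 147 after 30 min and 168 and 155 after 60 min. Both pre-treatments were higher at 60 min, by 0.28 ± 0.07 with FK506 and 0.61 ± 0.07 in ET cells. For ATP16 the adjusted p (limma) was 0.00819 with FK506 and 9.12e-07 in ET cells, the FK506 call resting on replicate 1 at 60 min and replicate 2 at 0 min. ATP5 (YDR298C), the oligomycin-sensitivity protein of the stalk, had 132 and 119 normalised CPM before CaCl2, 118 and 113 after 10 min, 149.9 and 141 after 30 min and 158 and 148 after 60 min with FK506. In ET cells ATP5 had 128 and 123 normalised CPM before CaCl2, 121 and 119 after 10 min, 138 and 131 after 30 min and 147 and 148 after 60 min, and its called rise at 60 min was among the smallest in both, at 0.29 ± 0.06 with FK506 and 0.24 ± 0.06 in ET cells. For ATP5 the adjusted p (limma) was 0.00111 with FK506 and 0.0016 in ET cells.

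The other F1 subunits had log2 changes at 60 min of 0.49 for ATP1 (YBL099W, α), 0.48 for ATP3 (YBR039W, γ) and 0.50 for ATP15 (YPL271W, ε) with FK506, and of 0.82, 0.86 and 0.79 in ET cells. Of the stalk and membrane subunits, ATP17 (YDR377W) changed most, by 0.52 with FK506 and 0.99 in ET cells. ATP7 (YKL016C) came next in ET cells, at 0.65, and was at 0.40 with FK506. ATP4 (YPL078C) and ATP14 (YLR295C) were at 0.15 and 0.32 with FK506 and at 0.33 and 0.37 in ET cells, where ATP4 with FK506 did not pass the test. ATP18 (YML081C-A), ATP20 (YPR020W) and TIM11 (YDR322C-A), which sit where 2 synthases meet or near it, were at 0.47, 0.46 and 0.32 with FK506 and at 0.36, 0.32 and 0.37 in ET cells, and TIM11 with FK506 did not pass the test. ATP20 was also lower at 10 min in both pre-treatments, by -0.37 with FK506 and -0.46 in ET cells on the log2 scale, while ATP4 and ATP14 were lower at 10 min with FK506, at -0.17 and -0.26, in calls that were lost under DESeq2 and with raw library totals.

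The change after CaCl2 was then compared between pre-treatments, as the log2 change from 0 min with FK506 minus that in ET cells. At 10 min 0 of the 40 genes differed (0.0806% of all genes tested did), with a median difference of -0.04; 2 of the 40 had an unadjusted p under 0.05 in limma, and edgeR and DESeq2 also called 0. At 30 min 1 gene was higher with FK506 (17.8% of all genes were) and 13 lower (14% of all genes), with a median of -0.16. At 60 min 1 was higher with FK506 (27.9% of all genes) and 23 were lower (24% of all genes), with a median of -0.35, against 0.01 for all genes at both times. NDE1 was the gene called higher at both times. Before CaCl2, at 0 min, FK506 and ET cells differed in 1 of the 40 genes (1.56% of all genes), CYT1, with 115 and 120 normalised CPM in FK506 cells against 96.4 and 92.1 in ET cells, a call that was lost under edgeR, under DESeq2 and without any 1 of 10 libraries. DESeq2 called SDH1 in its place, at 0.34, which limma did not call, at 0.33. The count at 30 min fell to 6 without replicate 2 of the FK506 0 min group, and to 7 without replicate 1 of the ET 0 min group or replicate 2 of the FK506 30 min group, whereas that at 60 min stayed between 22 and 26 without any 1 library.

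**Figure D4:**
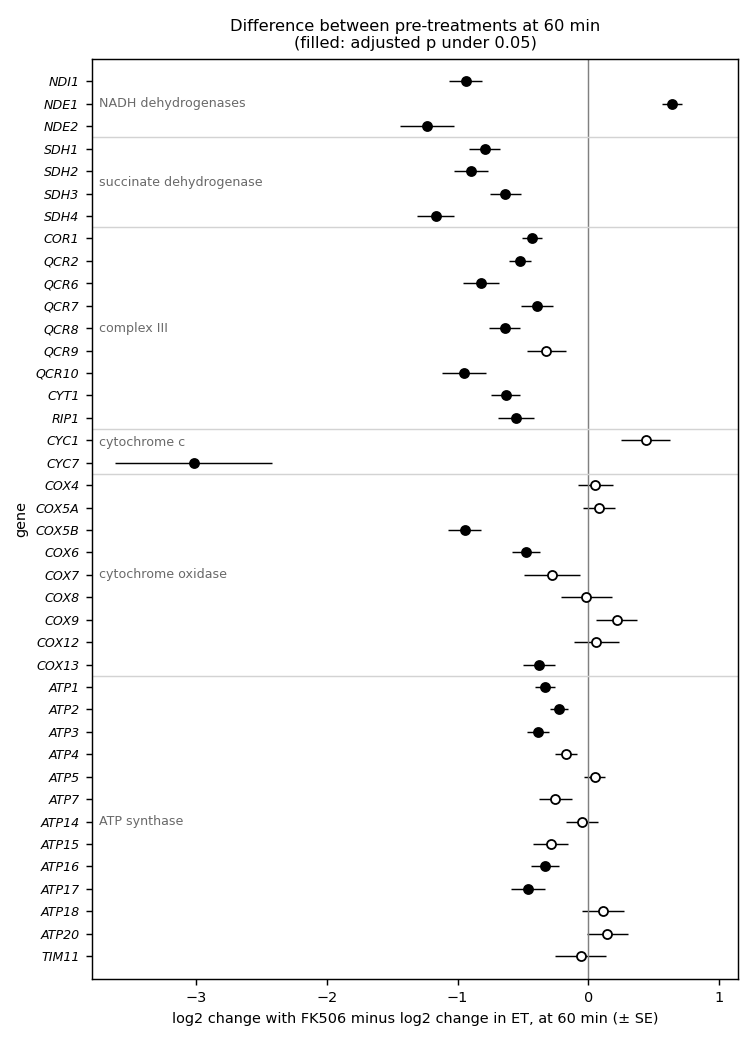
Log2 change from 0 min with FK506 minus that in ET cells at 60 min for the 40 genes, grouped by complex, with bars of ± 1 SE; filled points have an adjusted p under 0.05 (limma). CYC7 lies furthest left at -3.02, NDE1 is the only filled point right of 0, at 0.64, and cytochrome oxidase and ATP synthase hold most of the open points.

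By complex, the genes called in the difference at 60 min were as follows, beside 24% lower and 27.9% higher over all genes. All 4 succinate dehydrogenase genes were lower with FK506, with a median difference of -0.85 on the log2 scale, led by SDH4 at -1.17 ± 0.14 (limma, adjusted p = 2.00e-06). Of the 9 complex III genes 8 were lower, with a median of -0.55, and QCR10 was lowest at -0.95 ± 0.17 (limma, adjusted p = 1.32e-04), while QCR9, at -0.32, did not pass the test. In cytochrome oxidase COX5B, COX6 and COX13 were lower, at -0.95, -0.48 and -0.37, and the median over its 9 genes was -0.01. In ATP synthase ATP1, ATP2, ATP3, ATP16 and ATP17 were lower, by between -0.46 and -0.22, and the other 8 genes, between -0.29 and 0.15, did not pass the test. CYC7 had a difference of -3.02 ± 0.60 (limma, adjusted p = 4.08e-04), NDE2 of -1.24 ± 0.21 (limma, adjusted p = 6.96e-05) and NDI1 of -0.94 ± 0.13 (limma, adjusted p = 7.37e-06). For NDE1 it was 0.64 ± 0.08 (limma, adjusted p = 1.69e-06), and for CYC1 0.44 ± 0.19, which did not pass (limma, adjusted p = 0.0615). The calls of ATP2, ATP16 and COX13 were each lost when 1 of the 0 min libraries was left out. Raw library totals moved the median difference of all genes by -0.11 and gave 27 genes lower and 1 higher.

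The genes with AGGGG in the 500 bases before the start codon and those without it are described next with no test. At 60 min the 19 genes with the motif had a median log2 change of 0.42 with FK506 and 1.00 in ET cells, and the 21 without it 0.38 with FK506 and 0.50 in ET cells. The median difference between FK506 and ET cells was -0.63 for the 19 and -0.17 for the 21. Over all tested genes with a promoter the same split gave -0.16 for 1973 genes with the motif and 0.08 for 3771 without it. With and without the motif, their median log2 change was 0.02 and -0.02 with FK506, and 0.19 and -0.08 in ET cells. AGGGG stood before 3 of 4 succinate dehydrogenase, 5 of 9 complex III and 2 of 3 NADH dehydrogenase genes. It stood before 3 of 9 cytochrome oxidase, 5 of 13 ATP synthase and 1 of 2 cytochrome c genes. Motif and complex were not separated. For TNATTGGT the median difference was -0.38 over the 18 genes that hold it and -0.33 over the 22 that do not.

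The 40 genes together summed to 6878 and 6291 normalised CPM in the FK506 libraries at 60 min, against 8201 and 7796 in the ET libraries at 60 min. At 0 min they summed to 4949 and 4785 normalised CPM in the FK506 libraries and 4717 and 4558 in the ET libraries. Per kb of coding sequence, the median gene of ATP synthase was at 270.4 normalised CPM per kb with FK506 and 335 in ET cells at 60 min, that of complex III at 202 with FK506 and 289.5 in ET cells, and that of cytochrome oxidase at 180.0 with FK506 and 180.3 in ET cells. In bulk RNA, more cells that express a gene and more RNA per cell cannot be told apart.

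Genes that work beside these 40 were grouped in lists by function. Their counts at 60 min stand beside the shares of all genes, of which 13.1% were higher and 15.7% lower with FK506, 33.6% higher and 34.7% lower in ET cells, and 27.9% higher and 24% lower in the difference. All 10 genes of the TCA cycle outside succinate dehydrogenase were higher at 60 min in both pre-treatments, with a median log2 change of 0.52 with FK506 and 1.20 in ET cells. IDH2, a subunit of isocitrate dehydrogenase, was at 0.68 with FK506 and 1.84 in ET cells, ACO1, aconitase, at 1.21 with FK506 and 1.52 in ET cells, and FUM1, fumarase, at 0.17 with FK506 and 0.33 in ET cells. In this list 8 of 10 were lower with FK506 in the difference at 60 min, among them IDH2 at -1.17. Of 7 other dehydrogenases and carriers of the mitochondrial membranes, 5 were higher at 60 min with FK506 and all 7 in ET cells. POR1, the outer membrane porin, the highest with FK506, was at 0.86 with FK506 and 1.39 in ET cells. MIR1, the phosphate carrier, the lowest in ET cells, was at 0.45 with FK506 and 0.44 in ET cells. CYB2, the L-lactate dehydrogenase that reduces cytochrome c and the highest in ET cells, was at 0.30 with FK506, not called, and 1.70 in ET cells, with a difference of -1.40.

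A list of 7 further small subunits and regulators was mixed. INH1 and STF1, inhibitors of the ATPase activity of ATP synthase, had log2 changes at 60 min of 0.78 each with FK506 and of 1.63 and 2.27 in ET cells, and STF2, a related factor, was at 0.33 with FK506, not called, and 2.68 in ET cells, with a difference of -2.35. RCF1, which associates with cytochrome oxidase and complex III, was lower with FK506, at -0.46, in a call lost with raw library totals and without any 1 of 3 libraries, and higher in ET cells, at 0.50. ATP19, a small subunit of ATP synthase, was called in neither pre-treatment, at 0.25 with FK506 and -0.21 in ET cells, and its difference of 0.46 was the only one called higher in the list. These 7 genes had 2 higher and 1 lower at 60 min with FK506 and 5 higher in ET cells. Among 5 assembly factors of succinate dehydrogenase 2 were higher at 60 min with FK506 and 3 in ET cells, with SDH6 at 0.52 with FK506, not called, and at 2.38 in ET cells. Of 21 assembly factors of cytochrome oxidase 6 were higher with FK506, and 11 were higher and 2 lower in ET cells, where COX15 was highest at 0.84 and COX19 lowest at -0.77. For complex III and haem attachment 2 of 7 were higher in each pre-treatment, among them CBP4 at 0.51 with FK506 and 1.02 in ET cells, and for ATP synthase 0 of 6 were called with FK506 and 2 were higher in ET cells, with ATP22 at 0.32. For both these lists the share higher in ET cells was not above that of all genes, 33.6%. Of 10 genes of coenzyme Q synthesis 1 was higher with FK506, COQ9 at 0.33, and 6 were higher and 1 lower in ET cells, with COQ4 highest at 1.19.

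Of 10 regulators of respiratory genes 4 were higher at 60 min with FK506, and 7 were higher and 1 lower in ET cells. HAP4, the activating subunit of Hap2/3/4/5, had 91.5 and 105 normalised CPM before CaCl2, 319 and 274 after 10 min, 149 and 142 after 30 min and 191 and 192 after 60 min with FK506. In ET cells HAP4 had 87.4 and 93.7 normalised CPM before CaCl2, 216 and 182 after 10 min, 126 and 118 after 30 min and 139 and 129 after 60 min. It peaked at 10 min in both, with a log2 change of 1.60 ± 0.09 with FK506 and 1.14 ± 0.09 in ET cells, and at 60 min it was 0.97 ± 0.09 with FK506 and 0.57 ± 0.09 in ET cells. For HAP4 the adjusted p (limma) was 1.34e-07 with FK506 and 2.70e-05 in ET cells. Its difference at 60 min was 0.41 ± 0.13 (limma, adjusted p = 0.0123), opposite in sign to that of most of the 40 genes, and was not called with raw library totals, at 0.29, or without any 1 of 3 libraries. ADR1, an activator of genes repressed by glucose, was at 1.12 in both pre-treatments at 60 min, and MIG1, a repressor in glucose, was at -0.19 with FK506, not called, and -0.51 in ET cells. HAP2, a DNA-binding subunit, was at 0.00 with FK506 and 0.76 in ET cells, with a difference of -0.76.

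The subunits encoded in mitochondrial DNA were mostly higher at 60 min in both pre-treatments. ATP8 did not pass the filter on low counts. Of 6 that were tested, 5 were higher at 60 min in each pre-treatment, with a median log2 change of 0.44 with FK506 and 0.39 in ET cells, and 0 of 6 differed between pre-treatments at 60 min by limma, with 0 at an unadjusted p under 0.05. They summed to between 2091 and 2123 normalised CPM in the FK506 libraries at 60 min and between 2306 and 2419 in the ET libraries. Compared directly, without subtracting 0 min, 5 of 6 were lower with FK506 at 30 min and 2 of 6 at 60 min. Of all 6206 genes 1210 and 1885 were lower in these direct comparisons. Some of these mRNAs differed widely between replicates, such as ATP6 with 47.1 and 103 normalised CPM in FK506 cells at 0 min, which limits the test of the difference. COX2 rose most with FK506, by 0.51, and OLI1, subunit 9 of ATP synthase, most in ET cells, by 0.65. Genes that express the mitochondrial genome gave 2 of 14 higher at 60 min with FK506, and 4 higher and 4 lower in ET cells, with PET54 at 0.81 and CBP1 at -0.56 at the 2 ends. These counts are near the shares of all genes, 13.1% higher with FK506 and 33.6% higher and 34.7% lower in ET cells.

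Other genes known for expression at low oxygen moved in both directions. With FK506 1 of 5 was higher and 2 were lower at 60 min, and in ET cells 2 were higher and 3 lower, and in the difference 3 were higher and 2 lower. DAN1, a cell wall mannoprotein, was at 0.74 with FK506, not called, and 1.67 in ET cells, with a difference of -0.94 that was called. TIR1, another mannoprotein, was at 0.77 with FK506 and 1.57 in ET cells, while ANB1, which shares most of its sequence with HYP2 so that reads may be assigned to either, was at -2.30 with FK506 and -3.40 in ET cells.

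**Figure D5:**
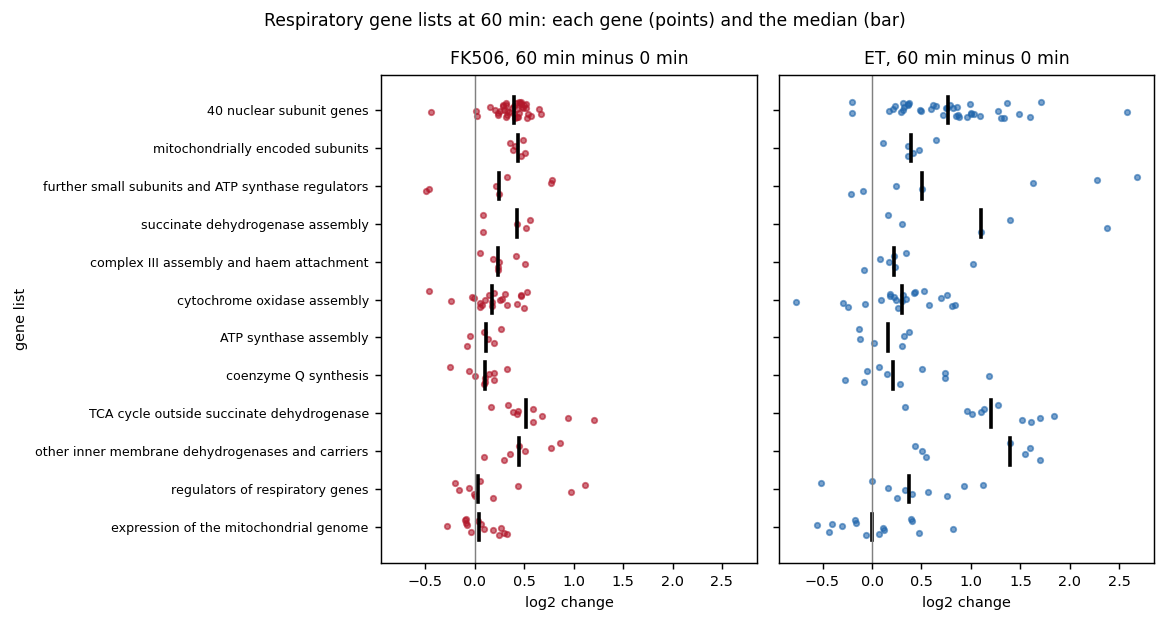
Log2 change at 60 min from 0 min with FK506 (left) and in ET cells (right) for each gene (points) of the 40 and of 11 lists of related genes, with the median as a bar. The medians were 0.52 with FK506 and 1.20 in ET cells for the TCA cycle, 0.40 with FK506 and 0.77 in ET cells for the 40 genes, and 0.44 with FK506 and 0.39 in ET cells for the mitochondrially encoded subunits.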

How the data were processed

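RNA was measured in 16 libraries, 2 for each of 8 groups of pre-treatment and time. The authors deposited a table of counts, reads per gene, with no normalization and with no column outside these samples (0 found). Reads from rRNA-depleted, strand-specific libraries were aligned with TopHat2 2.1.1 to the Ensembl R64-1-1 genome (sacCer3). The study's methods name HTSeq for counting, whereas the submitters' processing notes name featureCounts of Subread 1.5.3, and the strand setting of the counting is not given in the sources used here. Of 7126 features 329 had 0 counts in every library. Total counts of 11221758 to 11970166 per library limit the precision of low genes most.

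Genes were kept by filterByExpr with a count minimum of 10 (6206 genes), scaled by TMM (edgeR 4.0.16) and fitted with voom in limma 3.58.1 under R 4.3.3, with group, the replicate number as the batch (the study names a batch term without saying what it is), and a correlation within each time course, estimated at -0.117. The fit has 7 residual degrees of freedom, and an adjusted p (Benjamini-Hochberg) under 0.05 is a call. Replicates are described as biological, and p-values measure only the spread between these libraries. Normalised CPM uses the TMM-scaled totals. Alternatives were edgeR, DESeq2 1.42.0, other scalings and filters, no replicate term, no correlation, and leaving out each library.

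The members and all lists were chosen with earlier results of these data known. Values in every library are given for the paralogs, NDI1, HAP4 and the 3 highest and 3 lowest called members at 60 min that moved the same way in both replicates, per comparison, and CYT1 and some of the highest and lowest genes of the lists are named beside them. The lists hold mitochondrially encoded subunits, small subunits and regulators, assembly factors, coenzyme Q synthesis, the TCA cycle, other dehydrogenases and carriers, regulators, mitochondrial genome expression, hypoxic genes and mating-type genes. Motifs were searched on both strands in the 500 bases before each start codon of the RefSeq R64 annotation. Genes under the filter were not analysed here.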

Additional observations from a re-analysis of the deposited data

Results flagged for a closer look

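In 14 genes at 30 min and 24 at 60 min the change from 0 min itself differed between FK506 and ET cells by the limma test of that difference. These counts, 35% and 60% of the 40, are near the shares of all genes called in either direction, 31.7% and 51.9%. By direction, 13 were lower with FK506 at 30 min and 23 at 60 min, against 14% and 24% of all genes. The values are log2 changes with FK506 minus those in ET cells, and no explanation was tested for them. For NADH dehydrogenases the difference at 30 min was -0.74 for NDI1, 0.30 for NDE1 and -0.60 for NDE2. At 60 min it was -0.94 for NDI1, 0.64 for NDE1 and -1.24 for NDE2. For succinate dehydrogenase the difference at 30 min was -0.53 for SDH1, -0.39 for SDH2 and -0.37 for SDH3. At 60 min it was -0.79 for SDH1, -0.90 for SDH2, -0.63 for SDH3 and -1.17 for SDH4. For complex III the difference at 30 min was -0.29 for COR1, -0.38 for CYT1, -0.44 for QCR6 and -0.55 for QCR10. At 60 min it was -0.43 for COR1, -0.53 for QCR2, -0.63 for CYT1, -0.55 for RIP1, -0.82 for QCR6, -0.39 for QCR7, -0.64 for QCR8 and -0.95 for QCR10. For cytochrome c and cytochrome oxidase the difference at 30 min was -1.40 for CYC7, -0.35 for COX5B and -0.43 for COX6. At 60 min it was -3.02 for CYC7, -0.95 for COX5B, -0.48 for COX6 and -0.37 for COX13. For ATP synthase the difference at 30 min was -0.23 for ATP1. At 60 min it was -0.33 for ATP1, -0.22 for ATP2, -0.38 for ATP3, -0.33 for ATP16 and -0.46 for ATP17.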

How the results depend on the processing

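Counts of called genes stayed within 1.5 times under edgeR, DESeq2, RLE scaling, raw library totals, other filters and no correlation within a time course, except at 0 min between pre-treatments, where the 1 call became 0 with edgeR, with no replicate block, with no correlation and with no filter, and 2 with raw library totals, while DESeq2 called 1 gene, SDH1 in place of CYT1. Requiring a log2 change of at least 1 left 2, 2 and 0 genes with FK506 at 10, 30 and 60 min, 3, 10 and 11 in ET cells, 1 and 3 for the difference at 30 and 60 min, and 0 at 0 min. With raw library totals NDE1 in ET cells at 60 min was 0.0353 and CBP1 with FK506 at 30 min 0.0145, each on the other side of 0 from the TMM value; the cause was not tested. Without any 1 library the counts ranged from 16 to 28, 28 to 38 and 20 to 33 with FK506 at 10, 30 and 60 min, 20 to 25, 29 to 34 and 34 to 38 in ET cells, 0 to 0, 6 to 17 and 22 to 26 for the difference, and 0 to 2 at 0 min. Over all 28 pairs of groups the deviations between replicates had correlations from -0.053 to 0.227, with 12 pairs over 0.1. Whether the replicate numbers pair the samples was not tested further. Without the replicate block 22, 33 and 30 genes were called with FK506, 24, 30 and 37 in ET cells, and 0, 11 and 23 for the difference. Depth limits CYC7, which had 24 counts in its lowest library.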
